A study of Arabidopsis thaliana with 8 samples.

Results

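The ARR12 binding sites that lie just outside genes were described in root apical meristems of Arabidopsis thaliana. ARR12 is a B-type response regulator, a class of transcription factor. A site was a position where anti-GFP ChIP-seq summits of both ARR12-GFP libraries were linked within 200 bp, with no summit of a Col-0 library within 200 bp. Of 3503 such reproducible sites, 1124 (32.1%, exact binomial 95% interval 30.5 to 33.7) lay outside every protein-coding gene and 1 to 500 bp from the nearest one. They are called gene-proximal sites here. The position of a site was the midpoint between the best-scoring summit of each library. Scores played no part in choosing the gene-proximal sites among the reproducible ones.

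The ARR12-GFP plants carry ARR12 fused to the green fluorescent protein, which the antibody recognises, and their ecotype label is Col-0. Neither the promoter of the fusion nor the ARR12 allele of its host line is given in the labels. The control genotype received the same antibody. Its titles read GFP and its genotype label reads control, while the design text names it Col-0. Seedlings of all groups were stratified for 5 days and grown for 3 days at 22 °C. Immunoprecipitated DNA was sequenced from 2 independent biological replicates per genotype. Another 4 libraries, of input DNA, were not used. Summit lists hold no expression values, so the tissue label was not checked against marker genes.

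Cytokinin is a plant hormone whose signal passes from histidine kinase receptors through phosphotransfer proteins to the response regulators. B-type regulators such as ARR12 bind DNA and activate genes when phosphorylated, and the genes of A-type regulators, which dampen the pathway, are among their early targets. In the root, ARR12 and its relative ARR1 are known to act in the transition from dividing to differentiating cells, in part by altering auxin signalling and transport. Regions just outside a gene hold its core promoter at one end and sequence beyond the end of its transcripts at the other. The gene table used has no strand, so these ends are not told apart below.

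Gene-proximal sites were concentrated in the bases nearest to genes. Their median distance was 176.5 bp (quartiles 85 and 297.25 bp), and 625 of 1124 (55.6%) were within 200 bp of a gene. From the gene edge outwards, the successive 100 bp steps held 328, 297, 220, 141 and 138 sites. Because gaps between genes are often short, fewer bases exist at larger distances. Per Mb available, the density in these steps was 77.6, 85.0, 72.5, 53.0 and 58.7 sites. On the gene side of the edge it was 59.5 in the first 100 bp and 48.1 in the second, and it fell to 9.33 in the step from 400 to 500 bp inside. Site density was thus highest in the first 300 bp outside genes and lay between 53.0 and 64.4 in every step from 300 bp to 1500 bp.

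The whole window of 1 to 500 bp covered 15.8 Mb, 13.2% of the bases up to the last gene of each chromosome, and held 71.3 reproducible sites per Mb. The space over 500 and up to 1500 bp from a gene, whose sites are called intermediate here, held 61.0. The space inside genes held 15.9, and the space over 1500 bp away, whose sites are called distant, held 20.4. Col-0 summits were also denser in the window, at 2.28 and 3.49 per Mb in replicates 1 and 2, than inside genes, at 0.915 and 0.822. In the intermediate space they stood at 1.95 and 2.60 per Mb. Unlike the reproducible sites, they were densest in the distant space, at 3.07 and 4.27 per Mb. The gene-proximal share of reproducible sites differed little between chromosomes, from 30.4% on chromosome 2 to 35.5% on chromosome 3.

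**Figure D1:**
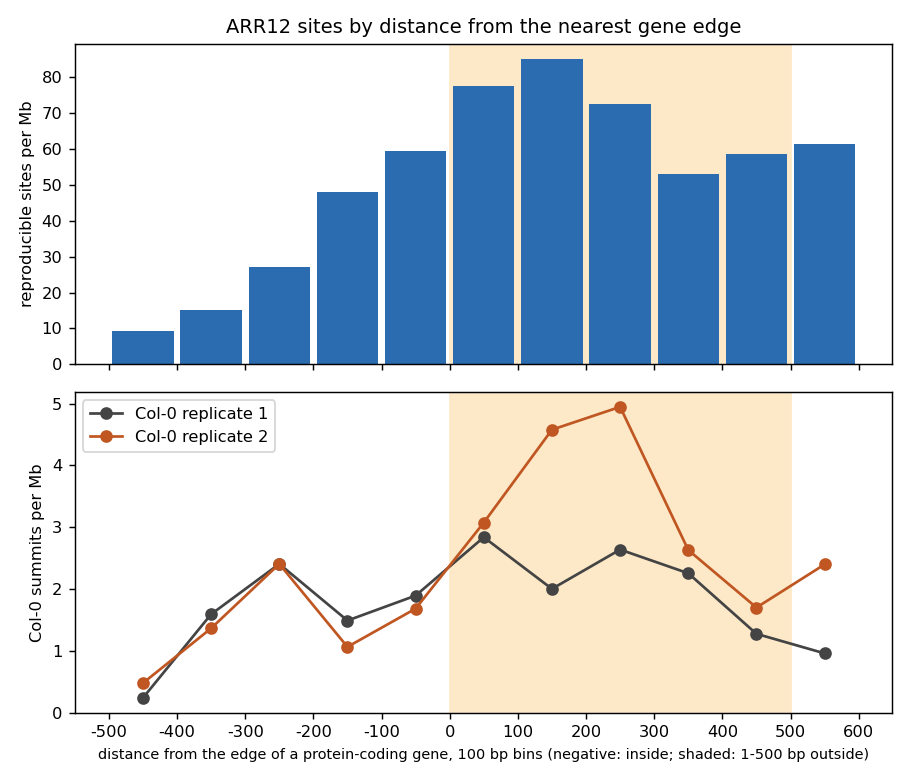
Upper panel: reproducible ARR12 sites per Mb in 100 bp steps from the edge of the nearest protein-coding gene (negative: inside the gene; shaded: 1 to 500 bp outside). Lower panel: the same for the summits of each Col-0 library, on its own scale. Site density reached 85.0 per Mb between 100 and 200 bp outside, while the plotted Col-0 densities stayed at or below 4.95 per Mb, reached by replicate 2 between 200 and 300 bp outside.

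The share of summits in this window differed between the libraries. In ARR12-GFP replicate 1, 2612 of 8137 nuclear summits (32.1%, interval 31.1 to 33.1) lay 1 to 500 bp outside genes, and in replicate 2, 1543 of 5492 (28.1%, 26.9 to 29.3). Replicate 2 had more of its summits inside genes, 37.7% against 29.2% in replicate 1. Of the Col-0 summits, 36 of 199 (18.1%, 13.0 to 24.2) and 55 of 251 (21.9%, 17.0 to 27.5) lay in the window, which covers 13.2% of bases. The intervals of an ARR12-GFP and a Col-0 library overlapped for replicate 2 of both and for no other pair. When distances were taken to every annotated gene in place of protein-coding ones, the share of Col-0 replicate 2 rose to 31.1%, above the 29.9% of ARR12-GFP replicate 2. An exact permutation test of 2 libraries against 2 cannot give a two-sided p under 0.333, so these shares are given as a description. Background removal took 33 of the 1157 joined sites in the window (2.85%) and 38 of 2417 elsewhere (1.57%). Of the 1124 gene-proximal sites left, 3 had a Col-0 summit within 1000 bp.

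The rule links summits at most 200 bp apart, which limits the offset between the libraries. Its median was 51 bp, as over all reproducible sites, and 557 sites (49.6%) had an offset of at most 50 bp. For 977 sites (86.9%) both summits were themselves 1 to 500 bp outside genes. In another 113 sites a summit fell inside a gene, and in 34 a summit fell beyond 500 bp, so the midpoint decided the place of these.

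The gene-proximal site with the highest mean score percentile lay beside EBF1 (AT2G25490), which encodes an F-box protein that targets the ethylene transcription factor EIN3 for degradation. Both libraries placed their summit at the same base, 10847234 of chromosome 2 (TAIR10), 141 bp from the gene. The summit scored 128 in replicate 1 and 84.2 in replicate 2. Scores are the authors' own values on a −log10 scale, so they are compared within a library. The mean percentile is that among the 3503 sites, averaged over both libraries, and was 99.9 for EBF1.

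Next came a site 297 bp from AT2G33180, a locus without a symbol in the gene table, at 14065828 of chromosome 2, scoring 131 and 75.7. LBD41 (AT3G02550), a LOB domain transcription factor gene known for its induction by hypoxia, was 332 bp from a site at 538458 of chromosome 3 that scored 106 and 67.9. These 3 had the highest scores of all gene-proximal sites in replicate 1, and their summits in the 2 libraries were 14 bp apart or less. ACT7 (AT5G09810), an actin gene expressed in growing tissue, was 145 bp from a site at 3051917 of chromosome 5. Its scores of 77.3 and 78.5 put it at percentile 98.3 in replicate 1 and 99.9 in replicate 2.

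Regulatory genes were also among the 15 sites with the highest mean percentile. JAZ3 (AT3G17860), a repressor of jasmonate responses, lay 74 bp from a site at 6119633 of chromosome 3 that scored 75.9 and 62.4. AGL44 (AT2G14210, also ANR1), a MADS-box gene that links nitrate to lateral root growth, lay 139 bp from one at 6018419 of chromosome 2, scoring 70.6 and 62.7. TIE1 (AT4G28840), named in the gene table as a TCP interactor with an EAR motif, lay 52 bp from one at 14240614 of chromosome 4, scoring 89.5 and 47.9. The gap between TIE1 and AT4G28830 held another of the 15, at 14234522, which lay 188 bp from AT4G28830 and 6144 bp from TIE1 and scored 78.1 and 33.1. A single gap between neighbouring genes thus held a high-scoring site near each of its ends.

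Of the others, ZEU1 (AT5G59440), a thymidylate kinase gene, was 141 bp from a site scoring 85.2 and 35.9. The remaining 7 lay beside loci without a symbol: AT5G47380, AT3G59130, AT2G17080, AT2G28510, AT4G14980, AT4G35200 and, as given above, AT4G28830. Over all 15 the scores ran from 70.1 to 131 in replicate 1 and from 29.1 to 84.2 in replicate 2. The lowest of them by mean percentile, beside AT4G35200, stood at percentile 97.0. At the other end were AT2G17880 and CESA5 (AT5G09870), a cellulose synthase gene. The AT2G17880 site scored 4.36 and 3.45, and the CESA5 site 4.16 and 3.59.

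**Figure D2:**
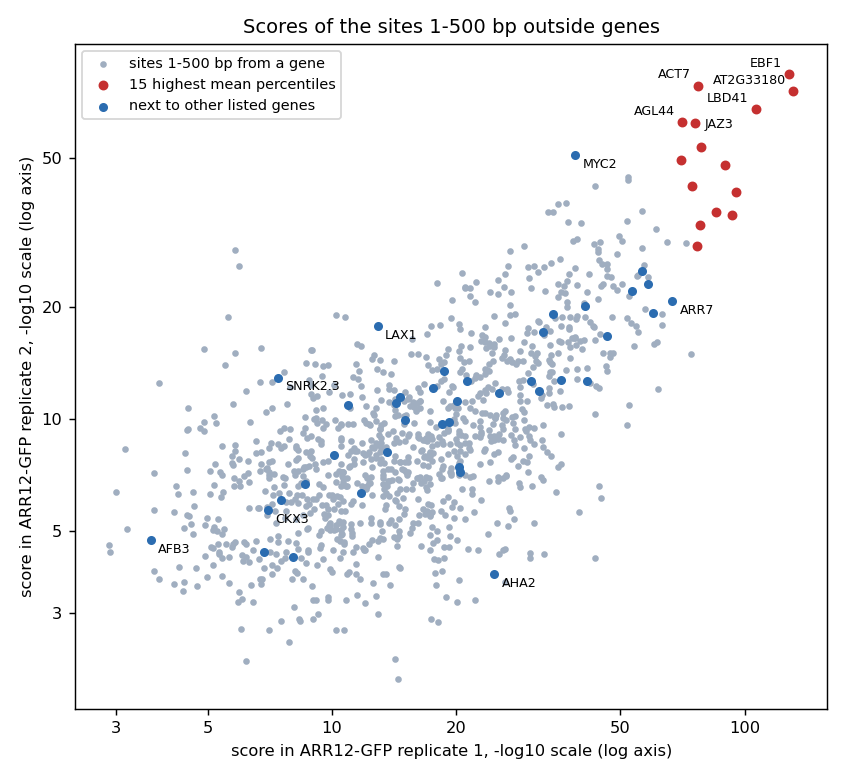
Score of each of the 1124 gene-proximal sites in ARR12-GFP replicate 1 (horizontal) and replicate 2 (vertical), both on log axes, with 1 point per site. Red points are the 15 sites with the highest mean percentile, blue points the sites nearest to other genes of the lists. The red points fill the upper right corner, above 70 in replicate 1, and AHA2 and LAX1 lie on opposite sides of the cloud.

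In both libraries the median score of gene-proximal sites lay above that inside genes and below those of intermediate and distant sites. They were near the general level in both, as 47.9% in replicate 1 and 48.3% in replicate 2 scored above the median of all reproducible sites. In replicate 1 the median score was 13.0 inside genes, 15.7 in gene-proximal sites, 19.3 in intermediate and 21.1 in distant sites. The same order held in replicate 2 over a narrower range, with medians of 8.24, 8.45, 8.92 and 9.11. Of all reproducible sites, 50% scored above the median of replicate 1 (16.4), against 538 of 1124 gene-proximal sites (47.9%).

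Sites inside genes did so in 38.8%, an odds ratio of 1.45 for the gene-proximal sites (interval 1.22 to 1.73, two-sided Fisher's exact test, adjusted p = 7.17e-05). This call ended when only summits scoring at least their list's median were used (1.24, exact test, adjusted p = 0.132). Intermediate sites did so in 56.9%, which gave 0.694 (0.578 to 0.834; adjusted p = 0.000145, exact). Distant sites did so in 65.7%, which gave 0.480 (0.383 to 0.599; adjusted p = 1.15e-10, exact). Without ARR12-GFP replicate 2, over all replicate 1 summits with no Col-0 summit within 200 bp, the last ratio was 0.730. In replicate 2 the gene-proximal share above the median was 543 of 1124 (48.3%). By the same exact test the odds ratio there was 1.04 (0.877 to 1.24, adjusted p = 0.635) against sites inside genes, 0.848 (0.706 to 1.02, adjusted p = 0.0907) against intermediate and 0.762 (0.614 to 0.945, adjusted p = 0.0181) against distant sites. Of these comparisons, that with distant sites passed in both libraries, but in replicate 2 it did not when summits were linked at 100 bp (0.780, exact test, adjusted p = 0.0529). The replicate 2 difference from intermediate sites passed under some other settings, with adjusted p by the exact test of 0.0368 for distances to every annotated gene and 0.0494 for positions of replicate 1 alone. The p-values were adjusted over the 6 tests, treat sites of one list as independent and do not measure the spread between plants.

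By definition, gap length is tied to the place of a site: a site far from both flanking genes needs a long gap. The median gap between the flanking protein-coding genes was 1662.5 bp for gene-proximal, 3319 bp for intermediate and 6565 bp for distant sites. Within gaps of over 2000 bp, a setting chosen after the data were seen, the replicate 1 odds ratios were 0.693 (0.545 to 0.881) against intermediate and 0.60 (0.463 to 0.776) against distant sites, with adjusted p of 0.00425 and 0.000258 by the exact test. The replicate 2 difference from distant sites did not pass there (odds ratio 0.837, 0.647 to 1.08, exact test, adjusted p = 0.216). This setting did not make gap length alike: gaps over 4000 bp held 223 of these 486 gene-proximal and 475 of the 510 distant sites. From 2000 to 4000 bp, gene-proximal, intermediate and distant medians were 18.4, 19.8 and 22.8 in replicate 1. In replicate 2 they were 9.01, 9.01 and 8.69, with only 35 distant sites.

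**Figure D3:**
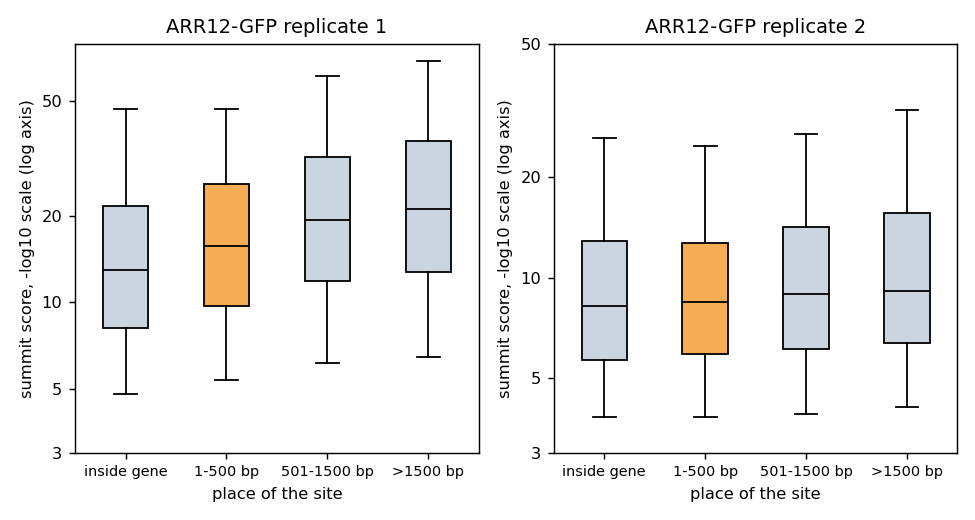
Scores of reproducible sites by place, in ARR12-GFP replicate 1 (left) and replicate 2 (right), on log axes. Boxes span the quartiles with the median as a line, and whiskers reach the 5th and 95th percentiles. The gene-proximal sites (orange) have medians of 15.7 and 8.45, between those inside genes and those further out.

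Within the window, median scores were lowest in the step nearest to a gene in both libraries and did not rise steadily outwards. The median score of replicate 1 was 13.9 in the 100 bp nearest to a gene and 15.8, 16.7, 17.3 and 16.7 in the successive 100 bp steps further out. In replicate 2 the medians of these steps stayed between 8.11 and 8.78. Scores above percentile 90 in both libraries were found for 6.05% of all reproducible sites and for 49 gene-proximal ones (4.36%), against 7.35% of intermediate and 11.2% of distant sites. Across gene-proximal sites the scores of both libraries had a rank correlation of 0.617, given as a description over 1124 sites that share the same libraries. Another reproducible site lay within 2000 bp of 212 gene-proximal sites (18.9%), against 28.9% of sites inside genes, 33.1% of intermediate and 41.4% of distant sites.

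The summits of this window were found again in the other library as often as other summits outside genes. In replicate 1, 43.9% of all nuclear summits were matched by a replicate 2 summit at most 200 bp away. Of the summits in the window, 1178 of 2612 were (45.1%). The share was 42.9% inside genes, 45.1% in the intermediate space and 41.8% in the distant one. None of the 3 odds ratios, 1.09 (0.977 to 1.23), 1.0 (0.888 to 1.13) and 1.14 (0.996 to 1.31), passed the two-sided Fisher's exact test at the linking distance used (adjusted p = 0.232, 1 and 0.170). The first passed at 100 bp (1.17) and the last at 300 bp (1.23). In replicate 2, 65.1% of all summits and 1114 of the 1543 in the window (72.2%) were matched. The tests of matched shares, here and below, treat summits of one library as independent and do not measure the spread between plants.

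The summits of replicate 2 inside genes were matched less often, at 52.0%. The odds ratio of the window against them was 2.40 (2.08 to 2.77, exact test, adjusted p = 1.38e-34). It was 0.892 (0.747 to 1.06) against intermediate summits (74.4%) and 0.976 (0.795 to 1.2) against distant ones (72.7%), neither of which passed (adjusted p = 0.306 and 1, exact).

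**Figure D4:**
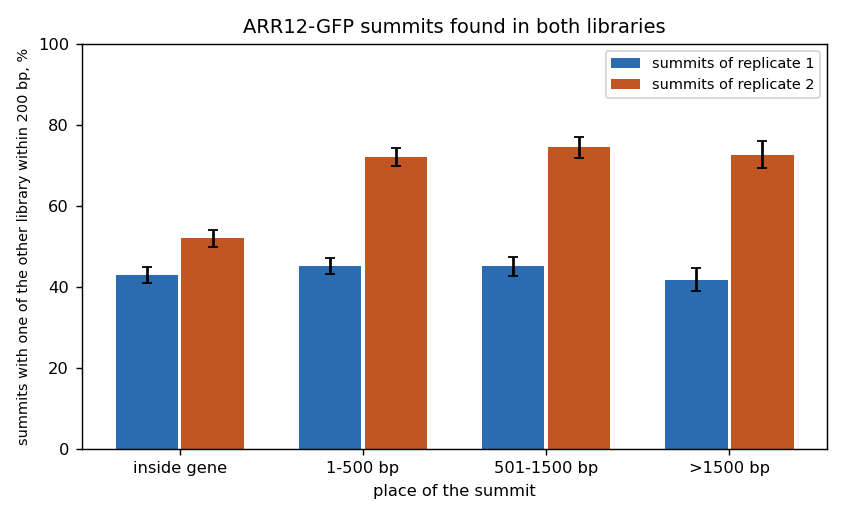
Percent of the summits of each ARR12-GFP library that have a summit of the other library within 200 bp, by place of the summit. Bars show the share and error bars its exact binomial 95% interval. Replicate 2 summits inside genes stand at 52.0%, below the 72.2% to 74.4% of the other places.

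The 1124 sites had 1107 different nearest protein-coding genes, 4.03% of the 27444 on the 5 nuclear chromosomes. A symbol is given for 508 of them. The median length of these genes was 2236 bp, against 2078 bp over all protein-coding genes. For 182 sites (16.2%) the gene on the other side was also at most 500 bp away, so 1297 genes (4.73%) had a gene-proximal site when both neighbours are counted. A site inside the gene as well was found for 85 of the 1107 nearest genes (7.68%), against 3.52% of all protein-coding genes.

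No gene was nearest to more than 2 gene-proximal sites, and each of the 17 genes with 2 had 1 beyond each end. PIN2 (AT5G57090, EIR1 in the gene table), an auxin efflux carrier gene of the root tip, had sites 143 and 313 bp from its ends, at 23100373 and 23105541 of chromosome 5. The former scored 30.4 and 12.7 in replicates 1 and 2, the latter 53.5 and 22.0. BEH3 (AT4G18890), a homolog of the brassinosteroid transcription factor genes BES1 and BZR1, had sites at 341 and 147 bp, the first with scores of 43.2 and 29.5 and the second with 32.1 and 11.4. AT2G22760 had sites at 58 and 498 bp with mean percentiles of 85.1 and 91.4. The others were AFP3, bZIP44, PFA-DSP3, CAT3, AT1G03220, AT1G68670, AT1G78860, AT3G14240, AT3G15760, AT3G19540, AT3G29034, AT3G45530, AT5G03700 and AT5G23840. The 2 sites of a gene could differ widely: those of AFP3 stood at percentiles 27.0 and 85.3.

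Some gene-proximal sites fell within genes of other kinds. In all, 51 (4.54%) lay in an annotated gene that does not encode a protein, a share equal to that of all reproducible sites (4.54%). Of the 51, 29 were in a long noncoding RNA gene, 8 in a miscellaneous RNA gene, 7 in a tRNA gene, 4 in a noncoding RNA gene, 3 in a transcribed pseudogene and 2 in an snRNA gene, with some in more than 1.

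At the inner border, the sites beside AT1G68440, AT2G24300, AT3G11930 and UGT73B2 (AT4G34135) lay 1 bp outside the gene, with mean percentiles of 9.50, 71.7, 56.4 and 8.43. At the outer border, the sites just inside were those of AT1G49360 at 500 bp, AT1G03220 at 499 bp and, tied at 498 bp, AT2G22760, AT2G37140 and AT4G39040. Their percentiles were 13.1, 65.0, 91.4, 57.3 and 80.5. Those just outside were PDCB4 (AT1G69295) and AT3G47610 at 502 bp, with percentiles of 11.5 and 8.49, and 3 sites tied at 503 bp. These were beside the A-type regulator gene ARR4 (AT1G10470), MKK9 (AT1G73500) and GATA9 (AT4G32890), with percentiles of 97.0, 28.4 and 95.1. The ARR4 site scored 87.3 and 26.8, and its replicate 1 summit alone was 459 bp from the gene.

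Of 63 genes of the cytokinin pathway, 4 (6.35%) were nearest to a gene-proximal site, against 4.03% of all protein-coding genes. Among the receptors and phosphotransfer proteins, which receive and relay the signal, none of 10 was. AHK3 (AT1G27320), a receptor gene, was the more distant neighbour of a site at 9492840 of chromosome 1, which lay 208 bp from it and 9 bp from AT1G27330 and scored 16.8 and 8.78. The B-type regulator genes had 0 of 11. Of the A-type regulator genes 1 of 10 was nearest, ARR7 (AT1G19050), whose summits at 6579358 of chromosome 1 scored 66.9 and 20.7, 44 bp from the gene.

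ARR9 (AT3G57040), another A-type gene, had a replicate 1 summit of score 89.2 at 180 bp, the highest in the window among listed genes that were nearest to no gene-proximal site. The nearest replicate 2 summit, of score 37.1, lay 492 bp from it, so they were not linked. ARR16 (AT2G40670) had a replicate 1 summit of 9.71 at 126 bp and the nearest replicate 2 summit was 17025 bp from it. A single-library count took every summit of the window in a library that had no Col-0 summit within 200 bp. By it, 8.93% of all protein-coding genes were nearest to a summit in replicate 1 and 5.34% in replicate 2. By that count 4 of the 10 A-type genes were nearest in replicate 1 and 2 in replicate 2. Of the 11 B-type genes 1 was in each, and of the 10 receptor and phosphotransfer genes 2 were in replicate 1 and 0 in replicate 2.

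Of the cytokinin response factors, AP2-type transcription factors that act beside the B-type regulators, 1 of 6 was nearest: CRF3 (AT5G53290), 320 bp from a site scoring 20.5 and 7.19. Of 26 genes of cytokinin metabolism and transport, 2 were. LOG7 (AT5G06300), which encodes an enzyme that releases active cytokinin, had a site at 444 bp that scored 19.3 and 9.83. CKX3 (AT5G56970), a cytokinin oxidase gene, had one at 396 bp that scored 6.99 and 5.69, a mean percentile of 17.2. ARR7 thus stood at percentile 93.0 while the other 3 cytokinin genes were at 58.9 or below.

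Auxin genes were nearest to gene-proximal sites more often than the background of 4.03% in each of the 4 lists, which is a description and not a test. Of the Aux/IAA genes, whose products repress auxin responses, 6 of 26 (23.1%) were. IAA16 (AT3G04730) was 351 bp from a site scoring 56.3 and 25, and IAA17 (AT1G04250, AXR3) one at 476 bp with 58.3 and 23.0. IAA19 (AT3G15540), a gene of growth responses, had one at 124 bp scoring 46.5 and 16.6. IAA9 (AT5G65670) had one at 23 bp scoring 21.2 and 12.7. IAA4 and IAA5 completed the list. These 6 had a median percentile of 77.8.

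Of the auxin response factor and receptor genes 5 of 20 (25%) were nearest, with lower scores and a median percentile of 25.7. ARF16 (AT4G30080), a repressing response factor that acts in the root cap, was the highest with 35.8 and 12.7 at 278 bp. ARF8 (AT5G37020) had a site at 14 bp and ARF5 (AT1G19850, MP), which directs root and vascular formation in the embryo, one at 36 bp scoring 8.62 and 6.70. The receptor gene AFB2 (AT3G26810) had one at 18 bp with 8.07 and 4.24. The receptor gene AFB3 (AT1G12820) had one at 138 bp with 3.65 and 4.72, at percentile 6.55. In median percentile the Aux/IAA sites thus stood above those of the response factors and receptors, at 77.8 against 25.7, but the lists overlapped. The ARF16 site, at 78.6, ranked above those of IAA9, IAA4 and IAA5, at 67.9, 65.7 and 47.4.

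Of 12 auxin transport genes 4 (33.3%) were nearest, with 5 sites. Beside PIN2 these were AUX1 (AT2G38120), LAX1 (AT5G01240) and PIN4 (AT2G01420). AUX1, an influx carrier gene, had a site at 313 bp with scores of 31.8 and 11.9. LAX1, its homolog, had one at 239 bp with 12.9 and 17.7, which are percentiles 37.8 in replicate 1 and 85.2 in replicate 2. PIN4, an efflux carrier gene of the root tip, had one at 389 bp with 11.8 and 6.31. When distances were taken to every annotated gene, only 1 of the 12 transport genes was nearest to a site of the window. The other auxin lists then had 5 genes each.

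Of 22 genes of auxin synthesis and inactivation 5 (22.7%) were nearest. GH3.17 (AT1G28130), an auxin-conjugating enzyme gene, led with 60.0 and 19.2 at 157 bp. The GH3.5 (AT4G27260) site scored 25.4 and 11.7 at 235 bp, and the GH3.2 (AT4G37390) site 14.6 and 11.4 at 41 bp. The flavin monooxygenase gene YUC9 (AT1G04180), which acts in auxin synthesis, had a site at 73 bp with 20.2 and 11.1. YUC8 (AT4G28720) had one at 16 bp with 7.53 and 6.06.

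By the single-library count used above, the 4 auxin lists, in the order given, had 8, 8, 5 and 4 genes nearest in replicate 1. In replicate 2 they had 6, 6, 4 and 4. The single-library backgrounds were 8.93% and 5.34%.

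**Figure D5:**
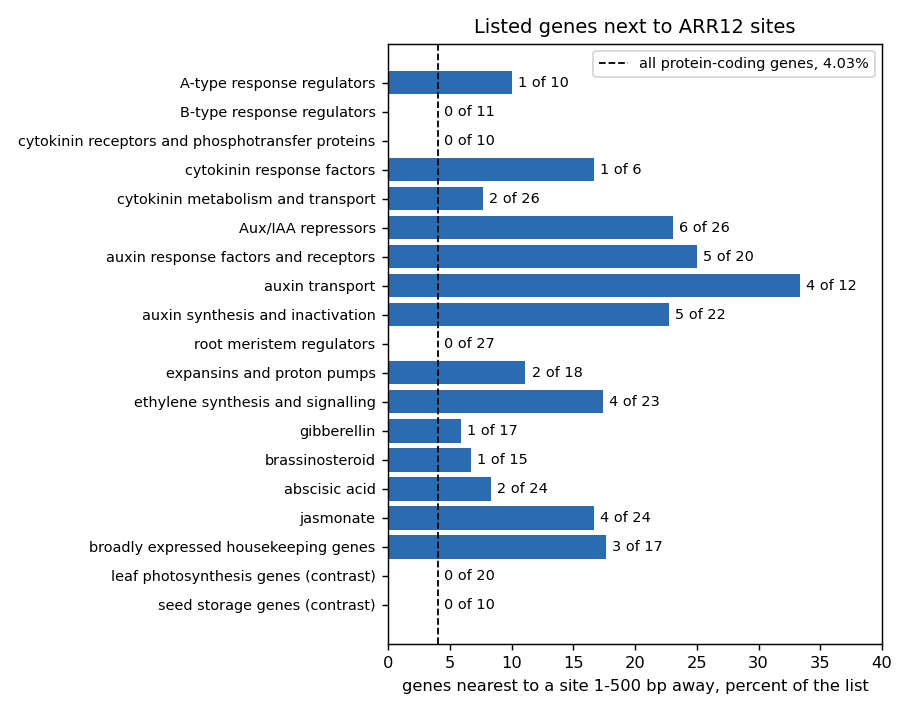
Percent of each gene list that is the nearest gene of a gene-proximal site, with the number of genes beside each bar. The dashed line is the 4.03% of all protein-coding genes. Auxin transport has the longest bar at 4 of 12, and 5 lists have no such gene.

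Of the ethylene genes, 4 of 23 (17.4%) were nearest, against 4.03% of all protein-coding genes. Besides EBF1, the receptor gene ETR2 (AT3G23150) had a site at 236 bp with scores of 34.3 and 19.1. EIL1 (AT2G27050), a transcription factor gene related to EIN3, had one at 364 bp with 17.6 and 12.1, and EIN2 (AT5G03280), a central transducer gene, one at 58 bp with 6.84 and 4.38. Receptor, transducer, transcription factor and F-box genes were thus represented, with scores that differed widely.

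Of the jasmonate genes, 4 of 24 (16.7%) were nearest, against the same background of 4.03%. Besides JAZ3 these were MYC2 (AT1G32640), the main transcription factor gene of the pathway, JAZ6 (AT1G72450) and JAZ7 (AT2G34600). MYC2 had a site at 313 bp at 11801720 of chromosome 1 that scored 38.9 and 51.0, at percentiles 87.6 and 99.3. JAZ6 scored 14.3 and 11 at 387 bp, and JAZ7 13.6 and 8.16 at 6 bp. JAZ4 and AOC4 were each the more distant neighbour of a site, at 53 and 13 bp.

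Other hormone lists were nearer to the background of 4.03%. Of 17 gibberellin genes only the receptor gene GID1B (AT3G63010) was nearest, at 147 bp with scores of 32.5 and 17.1. Of 15 brassinosteroid genes only the synthesis gene DWF4 (AT3G50660) was, at 436 bp with 41.0 and 20.1. Of 24 abscisic acid genes 2 were, the receptor gene PYL7 (AT4G01026) at 9 bp with 18.5 and 9.69 and the kinase gene SNRK2.3 (AT5G66880) at 233 bp with 7.40 and 12.9.

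Of 18 expansin and proton pump genes, which act on the cell wall, 2 (11.1%) were nearest, against 4.03% of all protein-coding genes. EXPA9 (AT5G02260) had a site at 261 bp with scores of 41.5 and 12.6. AHA2 (AT4G30190), the main root plasma membrane pump gene, had one at 141 bp with 24.8 and 3.82, at percentile 70.6 in replicate 1 and 4.65 in replicate 2.

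Of the root meristem regulators 0 of 27 were nearest to a gene-proximal site, where the background of 4.03% is about 1 gene, and 1 was when summits were linked at 300 bp. Replicate 1 alone had summits in the window for PLT3 (AT5G10510), JKD (AT5G03150), MGP (AT1G03840) and CCS52A1 (AT4G22910), with scores of 5.20, 10.2, 8.05 and 7.90. Replicate 2 alone had them for UPB1 (AT2G47270) and TMO7 (AT1G74500), with 6.74 and 7.36. Each of these 6 summits scored below its library's median over all reproducible sites, 16.4 and 8.61. The replicate 1 summit nearest to that of UPB1 lay 901 bp from it and scored 79.2. For TMO7 it lay 266 bp away and scored 7.86. By the single-library count, 8.93% of all protein-coding genes were nearest in replicate 1 and 5.34% in replicate 2.

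Of the contrast lists, 0 of 20 leaf photosynthesis genes and 0 of 10 seed storage genes were nearest to a gene-proximal site, which at a background of 4.03% is under 1 gene in each. Of 17 broadly expressed housekeeping genes 3 (17.6%) were: ACT7, GAPC1 (AT3G04120), a glycolytic enzyme gene, at 63 bp with scores of 15 and 9.95, and TUA5 (AT5G19780), a tubulin gene, at 68 bp with 20.4 and 7.43. The housekeeping share was thus as high as that of the ethylene and jasmonate lists. By the single-library count, 8 of the 17 were nearest in replicate 1 and 4 in replicate 2. Of the 20 photosynthesis genes, 3 were in replicate 1 and 0 in replicate 2. The backgrounds were again 8.93% and 5.34%.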

How the data were processed

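Summit lists of 4 anti-GFP ChIP-seq libraries, 2 per genotype, were used, and replicate numbers came from the titles. TAIR10 is the build, and MACS2 2.1.0, SAMtools, Bowtie 1.1.1 and FastQC 0.11.2 are the programs, per the submitters' processing notes. The authors deposited 1 list of 1-base summits per library, with a −log10 value of significance per peak; which kind of p is not stated. It was used only within a library. Read depth is unknown. How the peak caller was set, and whether it used the input, is not given in the sources used here. Intervals cover counting error only.

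Protein-coding genes came from a RefSeq table of TAIR10.1 without strand, exons or sequence, so the planned shares by side, the motif counts and the printing of sequences were not done. Summits were joined by single linkage. Distances run from the gene edge. Of 341 gene list entries, 338 were matched in the table, 45 by synonym and 18 by locus tag, and 2 more entries whose symbol belongs to another gene were dropped. The gene-proximal sites and lists were chosen with earlier results of these data known, so lists carry no test. Named genes were those of the 15 highest and 2 lowest sites by mean percentile, listed genes (up to 4 per list by rank, all for cytokinin), the 3 sites at each border and genes with the most sites; further genes named were chosen after their values were seen. Classes were compared by two-sided Fisher's exact tests, and p-values were adjusted by the Benjamini-Hochberg method. Alternatives covered 14 settings and 1 added later. The code was tested on simulated lists. Tests ran in SciPy 1.17.1 under Python 3.11.15, tables in pandas 2.3.3 with NumPy 2.4.6, and plots in matplotlib 3.10.9.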

Additional observations from a re-analysis of the deposited data

How the results depend on the processing

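Linking at 100 bp in place of 200 bp took the replicate 2 score comparison with sites over 1500 bp out to an odds ratio of 0.780 (Fisher's exact test, adjusted p = 0.0529), no longer past the threshold. It also brought the matched share of replicate 1 summits against those inside genes past it, at 1.17 (adjusted p = 0.0249, the same exact test). Linking at 300 bp did so against those over 1500 bp out, at 1.23 (adjusted p = 0.0103, exact). With summits scoring at least their list's median, 566 sites and 558 nearest genes were left, and the replicate 1 score comparison with sites inside genes fell short (1.24, adjusted p = 0.132, exact). The replicate 2 comparison with intermediate sites passed with positions of replicate 1 (0.829) and with every annotated gene (0.818). With every annotated gene the window held 34% and 29.9% of ARR12-GFP summits and 31.1% of Col-0 replicate 2 summits, which turned the order of the replicate 2 libraries.

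Ending the window at 400 bp gave 28.1% of reproducible sites, of which 63.4% within 200 bp of a gene, and 28.3% and 24.5% of ARR12-GFP summits. Ending it at 600 bp gave 35.7%, 49.9%, 35.8% and 31.6%. Within gaps over 2000 bp, chosen after the data were seen, the replicate 2 odds ratio against sites over 1500 bp out was 0.837 and did not pass.

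Leaving out 1 library at a time gave 1131 to 2570 sites, a share of 27.9% to 32.2%, 1114 to 2450 nearest genes and 41 to 77 listed genes. The highest counts came without ARR12-GFP replicate 2 and the lowest share without ARR12-GFP replicate 1. The replicate 2 odds ratio ran from 1.04 to 1.23 against sites inside genes and from 0.850 to 0.853 against intermediate sites. Both passed without ARR12-GFP replicate 1 (adjusted p = 0.00425 and 0.0416, exact). The replicate 1 odds ratio against distant sites ran from 0.470 to 0.730, the latter without ARR12-GFP replicate 2. No comparison that passed changed direction. The replicate 2 odds ratio against sites inside genes, which did not pass, turned to 0.881 with summits at or above their list's median. The cause of each change was not tested. Of the other main values recomputed, counts of single gene lists aside, 174 stayed on their side of the threshold or within their tolerance. Some list counts moved. Auxin transport went from 4 genes to 1 with every annotated gene. Auxin response factors and receptors went from 5 to 2 with summits at or above their list's median. Root meristem regulators went from 0 to 4 of 27 without ARR12-GFP replicate 2, where the share of all protein-coding genes rose from 4.03% to 8.93%. No paired analysis was possible because no result comes from a test between the genotypes. Alternatives for the upstream share and for motif forms were not run, since no strand or sequence was used here.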
